A study of Mus musculus with 8 samples.

Results

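The immediate early genes are a set of 10 genes named by symbol: Fos, Jun, Junb, Jund, Egr1, Klf6, Atf3, Myc, Ier2 and Dusp1. All 10 had a row in each liver's table and all 10 had enough counts to be tested. In all, 13303 genes were tested of 23236 with any count after rounding. The samples were 8 mouse livers. The 4 controls came from Cebpa fl/fl mice without Cre (genotype Cre-), and the 4 knockouts from CebpaΔHep mice (genotype Cre+), in which hepatocytes lack Cebpa, the gene of the transcription factor C/EBP alpha. All 8 mice were 10 weeks old and matched for body weight. Both groups were first given control liquid food during 5 days, and ethanol at 5% (vol) was in their liquid food during the 4 weeks that followed. No liver without ethanol is analysed here, so every value describes the ethanol-fed state and none a response to ethanol. The promoter that drove Cre is not given in the sources used here. The comparison, knockout against control, asks how loss of the factor in hepatocytes goes with gene expression under ethanol. The titles number the livers within each genotype, and the p-values measure the spread between these livers.

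Immediate early genes are transcribed within minutes of a signal, from factors already present in the cell, and their short-lived RNAs soon return to a low level. Growth factors and stress reach them through MAP kinases, which act on factors such as SRF with ELK proteins, CREB and JUN itself. Most of them encode transcription factors. FOS and JUN proteins pair through leucine zippers to form the AP-1 factor, and other members, such as DUSP1, switch the signal off. In the liver the set is best known from the response to partial hepatectomy, when hepatocytes leave rest and enter the cell cycle, and from injury. C/EBP alpha is known for holding hepatocytes in the resting, differentiated state.

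RefSeq promoter sequences (build GRCm38.p6) were searched for 7 of the 10 genes: Fos, Jun, Junb, Jund, Klf6, Atf3 and Dusp1. Those of Egr1, Ier2 and Myc were not searched. The 250 bases before the RefSeq start are printed for Jun and Klf6, the genes with the lowest p-values of the set, and for Dusp1. The groups of Klf6 and Dusp1 overlapped, and those of Jun did not. The windows lie at chr4:95052223-95052472 on the minus strand, chr13:5861239-5861488 on the plus strand and chr17:26508473-26508722 on the minus strand. Capitals mark matches to the motifs named in the next paragraph.
Jun: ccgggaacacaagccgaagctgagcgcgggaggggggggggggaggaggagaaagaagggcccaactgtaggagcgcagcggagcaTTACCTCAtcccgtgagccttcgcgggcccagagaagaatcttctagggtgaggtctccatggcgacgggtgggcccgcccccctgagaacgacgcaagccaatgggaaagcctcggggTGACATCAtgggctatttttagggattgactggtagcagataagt
Klf6: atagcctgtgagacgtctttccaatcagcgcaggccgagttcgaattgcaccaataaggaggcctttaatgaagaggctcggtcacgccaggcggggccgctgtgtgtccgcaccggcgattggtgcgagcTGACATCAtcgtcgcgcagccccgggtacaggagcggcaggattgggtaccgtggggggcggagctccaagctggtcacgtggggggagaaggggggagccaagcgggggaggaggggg
Dusp1: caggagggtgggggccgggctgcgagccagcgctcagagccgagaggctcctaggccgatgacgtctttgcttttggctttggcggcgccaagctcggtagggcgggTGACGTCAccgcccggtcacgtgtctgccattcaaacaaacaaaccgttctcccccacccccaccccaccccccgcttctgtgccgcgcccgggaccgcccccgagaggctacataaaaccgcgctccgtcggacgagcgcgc

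The motifs were searched on both strands in these bases. TGACATCA, a variant of the AP-1 site known from the Jun promoter, was found in the windows of Jun and Klf6 and in no other of the 7. Of 32841 promoter windows of the same length, 2.93% held it. The match lay 45 to 38 bases before the start of Jun and 119 to 112 bases before that of Klf6. TTACCTCA, the distal element known from Jun, was found only in Jun among the 7, at 164 to 157 bases before the start, and in 0.728% of all windows. As TGACATCA and TTACCTCA are both known from Jun itself, their matches in Jun were given in advance, and the shares are no background for them. TGACGTCA, the cyclic AMP response element bound by CREB and ATF proteins, was found only in Dusp1, at 143 to 136 bases before the start, and in 1.55% of all windows. The AP-1 sites TGACTCA and TGAGTCA (4.46% of windows) and the CArG box bound by SRF (1.47%) had no match in the 7 windows. Bases further upstream, and the promoters of Egr1, Ier2 and Myc, were not searched. The lack of a match therefore does not show that the members lack such sites. TTGCNNAA, a C/EBP-type motif held by 9.57% of windows, had a match only in Jund. The Jund window ends at chr8:70697738, upstream of the gene's GENCODE M21 coordinates, which begin at 70698949 on the plus strand. It therefore does not border that start. Only the windows of Fos and Jun border the GENCODE M21 start of their gene. The Dusp1 window lies inside the gene's GENCODE coordinates, 26505590 to 26562128 on the minus strand, and that of Atf3 lies inside its gene too. The Klf6 window ends at chr13:5861488, past the GENCODE start at 5861482. None of these motifs overlaps another in the 3 printed windows.

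Expected counts, which RSEM estimates per gene, summed to between 21048350 and 28148744 per liver. Levels are given as CPM, counts scaled to a common library size, on which 1 count was worth 0.0341 to 0.0485 CPM. TPM, which also divides by gene length, is used wherever genes are compared with each other. Cebpa was at 264 to 320 CPM in the controls and 5.44 to 9.26 CPM in the knockouts, so the genotype labels held in all 8 livers (-5.37 in log2, SE 0.18, edgeR adjusted p = 4.78e-07). Control 2 and knockout 4 stood apart from their groups: chi-square per gene between livers was 100 to 155 for the 3 pairs with control 2 and 27.9 to 51.3 for the other control pairs, and 56.8 to 62.7 for pairs with knockout 4 and 36.5 to 42.3 for the other knockout pairs.

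No immediate early gene passed the test at an edgeR adjusted p below 0.05, against 2.06% of all genes tested. Jun, Klf6 and Fos had an unadjusted p below 0.05, all with the higher mean in the knockouts, where 9.61% of all genes tested had such a p with a higher mean, 8.9% with a lower one and 18.5% in either direction. DESeq2 called Jun and Klf6 higher, and it called 5.68% of the genes to which it gave an adjusted p. The set split evenly, 5 genes with a positive and 5 with a negative log2 fold change. Its median was 0.06, beside 0.00365 over all genes tested. In RNA from whole liver, a change in the number of cells of a type and a change in RNA per cell cannot be told apart.

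**Figure D1:**
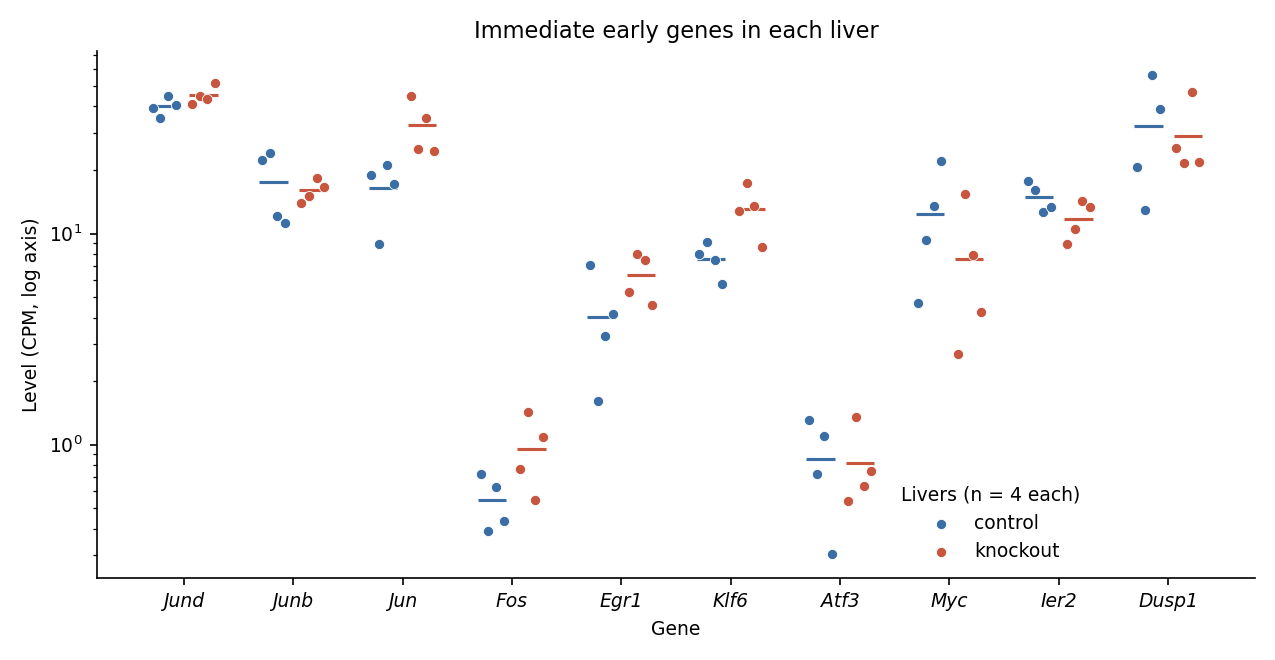
Level of each immediate early gene in CPM on a log axis, with 1 point per liver and a bar at the mean of each group (n = 4 controls and 4 knockouts). The groups of Jun do not overlap, those of the other 9 genes do. Over all genes tested, 11.5% had groups that do not overlap, in either direction.

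Jun, Junb and Jund encode the JUN subunits of AP-1. Jun, the one that drives proliferation after hepatectomy, was at 19.0, 8.88, 21.1 and 17.1 CPM in controls 1 to 4. It was at 44.9, 25.1, 35.3 and 24.6 CPM in knockouts 1 to 4. Every knockout lay above every control, which was so, in that direction, for 5.54% of all genes tested. On the log2 scale the difference was 0.97 (SE 0.29, 95% interval 0.31 to 1.63, edgeR adjusted p = 0.132), a ratio of 1.96 between the genotypes. DESeq2 gave an adjusted p of 0.0116. With 1 liver left out the log2 fold change ran from 0.76, without control 2, to 1.11, without control 3, and the edgeR adjusted p stayed between 0.113 and 0.248. Leaving out both livers that stood apart, control 2 and knockout 4, gave 0.88 (adjusted p = 0.0744). Jun (ENSMUSG00000052684.4) is a gene with 1 exon on chromosome 4 (mm10), between 95049034 and 95052222, minus strand. Its antisense gene Junos shares 232 exon bases with it and was assigned 15 counts in all controls together and 14 in all knockouts.

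Junb, a subunit often counteracting Jun, did not follow it. Junb stood at 22.3, 24.2, 12.1 and 11.3 CPM in controls 1 to 4, against 13.9, 15.1, 18.4 and 16.6 CPM in knockouts 1 to 4. All 4 knockouts lay inside the range of the controls, which fell into a higher pair, controls 1 and 2, and a lower pair, controls 3 and 4. The log2 fold change of Junb was -0.13 (SE 0.25, 95% interval -0.69 to 0.44, edgeR adjusted p = 0.82), and its sign turned without control 1 or control 2 and on TPM values. Junb shares 173 exon bases with Prdx2 on the opposite strand, a gene with 1760 to 2562 counts per liver, and the strand setting of the counting is not given in the sources used here.

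Jund, which resting cells express steadily, had the highest mean level of the set and the smallest spread. It was at 39.3, 35.3, 44.8 and 40.7 CPM in the controls and 41.1, 45.0, 43.4 and 51.9 CPM in the knockouts. Knockouts 2 and 4 lay above all controls and the other two knockouts within their range. The difference in log2 was 0.18 (SE 0.10, 95% interval -0.04 to 0.40, edgeR adjusted p = 0.362). Jund shares 877 exon bases with the antisense gene Gm11175, which was assigned 15 counts in all controls together and 19 in all knockouts.

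Per gene length, the JUN genes together were at 49.3 to 57.1 TPM in the controls and 67.5 to 72.8 TPM in the knockouts, with a gap between the groups. In CPM the sums were 68.4 to 80.6 and 85.2 to 99.9, also apart. Without Jun the groups overlapped: Junb and Jund summed to 42.3 to 49.5 TPM in the controls and 47.8 to 61.6 TPM in the knockouts. These sums carry no test here, and on the scale log2(TPM + 1) the median gene was itself 0.09 higher in the knockouts. Jund made up 62.6% ± 6.33 of the summed TPM in the controls and 59.7% ± 5.55 in the knockouts (SD, n = 4). The share of Jun was 12.6% ± 3.81 in the controls and 21.1% ± 6.17 in the knockouts (SD, n = 4), with ranges of 7.08% to 15.7% and 15.3% to 29.2%. These overlap. That of Junb was 24.8% ± 9.35 and 19.2% ± 1.99 (SD, n = 4). The ratio of Jun to Junb TPM ran from 0.198 in control 2 to 0.939 in control 3, and from 0.802 in knockout 4 to 1.74 in knockout 1.

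Fos, the classic partner of Jun, was near the floor of detection. It had 16, 8, 15 and 10 counts in controls 1 to 4 and 17, 36, 12 and 32 counts in knockouts 1 to 4. In CPM this was 0.722, 0.388, 0.632 and 0.434 in the controls against 0.764, 1.42, 0.548 and 1.09 in the knockouts. Knockouts 1, 2 and 4 lay above all controls, knockout 1 barely, and knockout 3 lay among them. The log2 fold change of Fos was 0.82 (SE 0.36, 95% interval 0.01 to 1.62, edgeR unadjusted p = 0.0474, adjusted p = 0.264), a ratio of 1.76. The unadjusted p stood above 0.05 in 5 of the 8 fits that left out 1 liver. Fos (ENSMUSG00000021250.13) is on chromosome 12 (mm10), between 85473890 and 85477273, plus strand.

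Fosl2, a longer-lived FOS relative and no member of the set, held most of the FOS family RNA. Its share of the summed TPM of Fos, Fosb, Fosl1 and Fosl2 was 87.6% ± 5.52 in the controls and 78.0% ± 9.74 in the knockouts (SD, n = 4). Fos held 9.70% ± 2.93 and 19.5% ± 8.64 (SD, n = 4). Fosb, with 17 and 19 counts per group, and Fosl1, with 2 and 3, had too few to be tested. The 4 FOS genes together were at 3.75 to 4.98 TPM in the controls and 3.43 to 5.40 TPM in the knockouts.

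**Figure D2:**
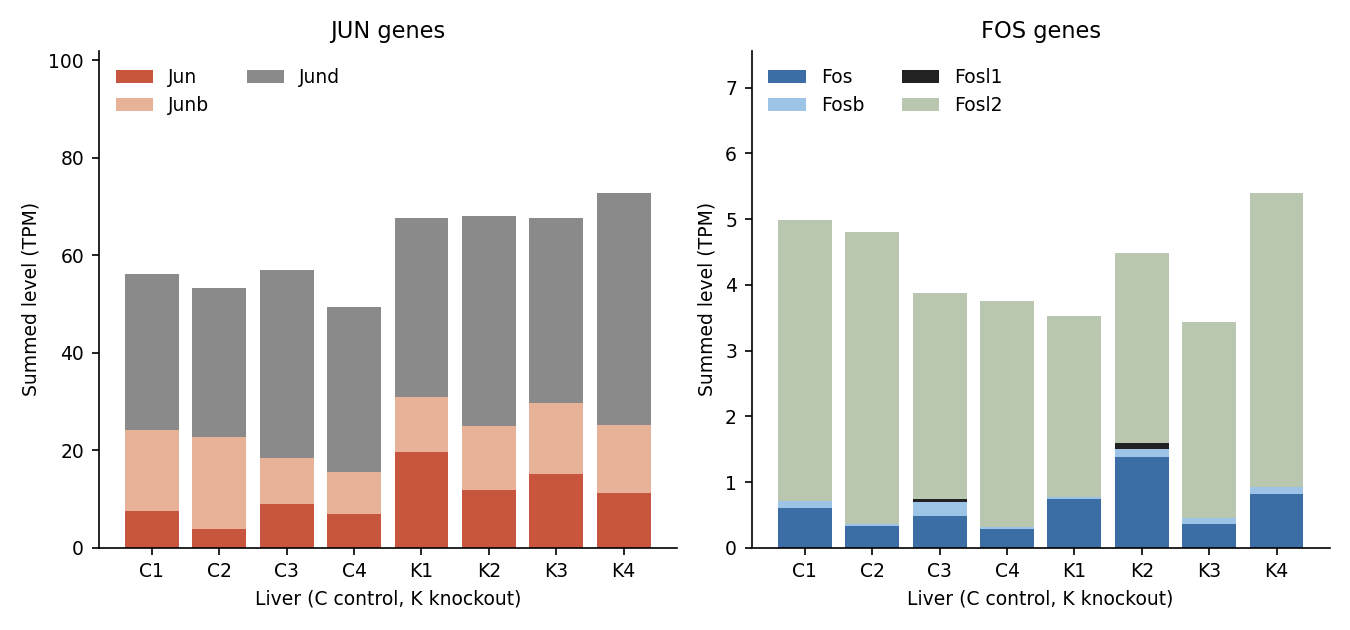
Stacked bars of the TPM of the JUN genes (left) and of the FOS genes (right) in each liver, with separate vertical scales. Jund makes up most of every JUN bar and Fosl2 most of every FOS bar, and the JUN bars of the 4 knockouts, at 67.5 TPM or more, stand above those of the 4 controls.

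Klf6 had the lowest p of the set. It encodes a zinc finger factor induced in injured liver, in stellate cells as well as hepatocytes. Klf6 stood at 7.99, 9.12, 7.46 and 5.77 CPM in controls 1 to 4, against 12.8, 17.3, 13.6 and 8.63 CPM in knockouts 1 to 4. Knockouts 1 to 3 lay above all controls, and knockout 4 lay below control 2 alone. Its log2 fold change was 0.78 (SE 0.21, 95% interval 0.32 to 1.25, edgeR unadjusted p = 0.00395, adjusted p = 0.0944), a ratio of 1.72. It passed the test when knockout 4 was left out, at 0.94 (edgeR adjusted p = 0.0243), and stood at 0.62 when knockout 2 was (adjusted p = 0.227). Leaving out control 2 and knockout 4 together gave 1.04 (adjusted p = 0.017). For Klf6 these are the highest control and the lowest knockout, so leaving them out widens the difference by itself. DESeq2 gave an adjusted p of 0.018. Klf6 (ENSMUSG00000000078.7) is on chromosome 13 (mm10), between 5861482 and 5870394, plus strand.

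Egr1, a zinc finger factor and one of the fastest genes to respond to serum, was at 7.09, 1.60, 3.29 and 4.16 CPM in controls 1 to 4. It was at 5.30, 7.99, 7.49 and 4.60 CPM in knockouts 1 to 4. The knockouts all lay above controls 2 to 4, and control 1 lay among them. The log2 fold change was 0.65 (SE 0.38, 95% interval -0.22 to 1.52, edgeR adjusted p = 0.404). It was 1.06 without control 1 (adjusted p = 0.167) and 0.39 without control 2 (adjusted p = 0.586).

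Atf3, a stress-induced bZIP factor that can repress its targets, was at 1.31, 0.728, 1.10 and 0.304 CPM in the controls and 0.539, 1.35, 0.640 and 0.750 CPM in the knockouts. The groups overlapped throughout, at 7 to 34 counts per liver. The log2 fold change of Atf3 was -0.06 (SE 0.45, 95% interval -1.06 to 0.93, edgeR adjusted p = 0.963), an interval that still holds a ratio of 1.91 in one direction and of 0.481 in the other. Its sign turned under several of the other settings.

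Myc, which encodes a transcription factor that turns on ribosome production and cell cycle entry, had the widest spread of the set. It was at 4.69, 9.27, 13.5 and 21.9 CPM in controls 1 to 4, against 2.70, 15.3, 7.91 and 4.23 CPM in knockouts 1 to 4. The highest liver was 8.14 times the lowest. Knockouts 1 and 4 lay below all controls, and knockout 2 lay above 3 of them. The difference in log2 was -0.71 (SE 0.63, 95% interval -2.18 to 0.75, edgeR adjusted p = 0.582), -1.33 without knockout 2 (adjusted p = 0.379) and -0.29 without control 4 (adjusted p = 0.844). Myc lies on chromosome 15 of mm10, from 61985391 to 61990374.

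Ier2, a nuclear protein of the early growth response, was at 17.6, 16.0, 12.7 and 13.4 CPM in the controls and 8.89, 10.5, 14.2 and 13.4 CPM in the knockouts. Knockouts 1 and 2 lay below all controls, and the other two lay among the lower controls. Its log2 fold change was -0.35 (SE 0.16, 95% interval -0.71 to 0.02, edgeR adjusted p = 0.295).

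Dusp1, a phosphatase that inactivates p38, JNK and ERK kinases and is induced by glucocorticoids as well, was at 20.8, 12.9, 56.5 and 38.7 CPM in controls 1 to 4. It was at 25.4, 21.6, 46.7 and 21.9 CPM in knockouts 1 to 4, all inside the range of the controls. On the log2 scale the difference was -0.16 (SE 0.48, 95% interval -1.29 to 0.97, edgeR adjusted p = 0.891), and its sign turned without control 3, at 0.25.

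**Figure D3:**
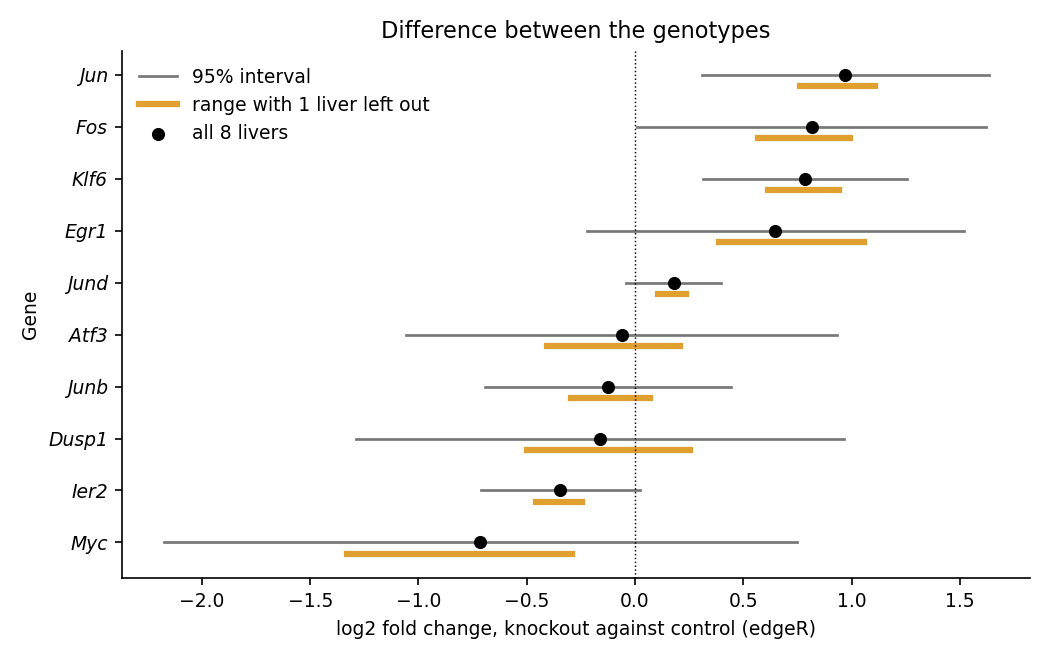
The log2 fold change of each immediate early gene from edgeR over 8 livers (points), its 95% interval (grey lines) and the lowest to highest value when 1 liver is left out (yellow bars). The intervals of Jun, Klf6 and Fos lie above 0, that of Fos from 0.01, and the yellow bars of Atf3, Junb and Dusp1 reach both sides of 0.

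The members differed in how much they varied between livers of the same genotype. The pooled SD of log2 CPM within genotypes was 1.01 for Myc, 0.76 for Dusp1, 0.69 for Atf3 and 0.67 for Egr1, where the median over all genes tested was 0.21. Only 1.57% of all genes tested had a larger SD than Myc, and 3.53%, 4.69% and 5.03% had a larger one than Dusp1, Atf3 and Egr1. Jun, at 0.49, Fos, at 0.47, Junb, at 0.42, Klf6, at 0.35, and Ier2, at 0.27, lay between. Jund, at 0.14, was below the median gene. Fos and Atf3 had at most 36 and 34 counts in any liver. In TPM, Jund was first and Dusp1 second in the mean of both genotypes, but their ranges over livers overlapped in both. Klf6 and Egr1 were seventh and eighth in both. Jun was sixth in the controls, at 6.83 ± 2.20 TPM, and the third in the knockouts, at 14.5 ± 3.91 TPM (SD, n = 4), where its range overlapped that of Junb.

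**Figure D4:**
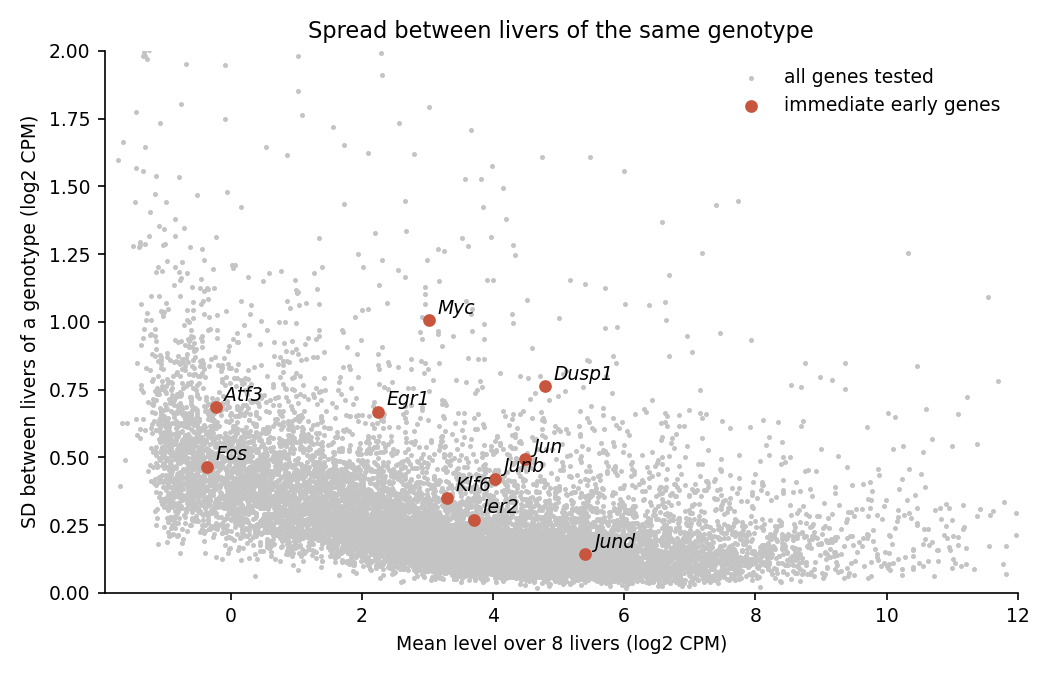
Pooled SD of log2 CPM between livers of the same genotype (vertical) against the mean log2 CPM over 8 livers (horizontal) for all genes tested (grey) and the immediate early genes (red), with 59 genes outside the axes. Myc, at 1.01, has the highest SD of the set, and Jund, at 0.14, lies within the bulk of genes of its level.

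The livers did not line up along 1 axis for the set. Control 2 was the lowest liver for 5 members, Fos, Jun, Jund, Egr1 and Dusp1, and the highest for Junb. Knockout 2 was the highest for 4, Fos, Egr1, Klf6 and Atf3. Control 4 was the lowest for Junb, Klf6 and Atf3 and the highest for Myc. The genes whose deviations from their group means most resembled the average of the members' over the 8 livers were Trerf1 (Pearson r = 0.97, Spearman rho = 1), Mtss1 (r = 0.942, rho = 0.905) and Wasf2 (r = 0.932, rho = 0.714). They were picked as the highest of all genes tested, so no test is given.

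Among 9 other bZIP partners of FOS and JUN proteins, 4 had enough counts and none passed with edgeR or DESeq2, with 1 unadjusted p below 0.05 (median log2 fold change -0.11). Over all genes tested, 18.5% had such a p. Jdp2, a repressor that pairs with JUN, was at 1.48 ± 0.259 CPM in controls against 2.33 ± 0.397 in knockouts (SD, n = 4 each, edgeR adjusted p = 0.146). Its groups did not overlap, alone of the 4. Of all genes tested, 5.54% had groups apart with the knockouts higher. Fosl2 was at 15.3 ± 2.67 against 11.9 ± 3.26 CPM (SD, n = 4 each, adjusted p = 0.348). Atf7 was at 27.9 ± 2.36 against 25.2 ± 1.67 CPM (SD, n = 4 each, adjusted p = 0.402).

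Of 40 other immediate early and early response genes tested, 1 fell and none rose (median log2 fold change -0.17), where 1.21% of all genes tested fell and 0.849% rose. An unadjusted p below 0.05 was found for 12 of the 40, 4 with the higher mean in the knockouts and 8 with the lower, where all genes tested gave 18.5%, 9.61% and 8.9%. DESeq2 called 8 of the 40, 2 higher and 6 lower, where it called 5.68% of all genes to which it gave an adjusted p. Gadd45b and Sgk1 were the higher ones. Errfi1, Gadd45a, Klf10, Nfkbiz, Socs3 and Trib1 were the lower ones. The gene that fell in edgeR was Trib1, a pseudokinase known for directing C/EBP alpha to degradation. It was at 51.7, 47.9, 40.7 and 40.2 CPM in controls 1 to 4, against 14.6, 20.3, 28.2 and 12.005 CPM in knockouts 1 to 4, with no overlap. The log2 fold change of Trib1 was -1.27 (SE 0.24, edgeR adjusted p = 0.0388), 2.40-fold lower. The call was lost in 6 of the 8 fits that left out 1 liver, all but those without knockout 3 or knockout 4, with an adjusted p up to 0.107 without knockout 2.

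Nfkbiz, an inflammatory cofactor of NF-kB, was at 5.92 ± 1.17 CPM in controls against 3.75 ± 0.572 in knockouts (SD, n = 4 each, edgeR adjusted p = 0.099). Sgk1, a kinase induced by glucocorticoids, was at 11.6 ± 3.53 against 18.6 ± 1.11 CPM (SD, n = 4 each, adjusted p = 0.106). It passed the test without control 3 (adjusted p = 0.0426), its highest control, whose removal widens the difference by itself. Gadd45b, a stress gene, was at 1.03 ± 0.424 against 2.53 ± 1.16 CPM (SD, n = 4 each, adjusted p = 0.125). The groups of these 3 genes did not overlap, and DESeq2 called all 3. Of the 40 genes, 2 had groups apart with the knockouts higher and 6 with the knockouts lower. Over all genes tested the shares were 5.54% and 5.92%. Egr2, Egr3, Egr4, Nr4a3 and Arc had too few counts to be tested.

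No gene of the signal path to the set passed edgeR's test. Of 9 ligands and receptors of the EGF and HGF systems tested, Btc, an EGF receptor ligand, was at 1.22 ± 0.149 CPM in controls against 2.55 ± 0.892 in knockouts (SD, n = 4 each, edgeR adjusted p = 0.0867). It passed without knockout 4 (adjusted p = 0.0409), its lowest knockout, whose removal widens the difference by itself. DESeq2 called Btc, alone of the 9. An unadjusted p below 0.05 was found for 2 of them, where 18.5% of all genes tested had one and DESeq2 called 5.68%. Erbb2 was at 0.836 ± 0.0664 against 1.32 ± 0.313 CPM (SD, n = 4 each, adjusted p = 0.198). The HGF receptor Met was at 96.7 ± 12.5 against 80.4 ± 14.7 CPM (SD, n = 4 each, adjusted p = 0.329). Egfr was at 501 ± 224 against 488 ± 378 CPM (SD, n = 4 each, adjusted p = 0.983).

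Of 28 genes of the MAP kinase path, SRF, its partners and CREB, 18 had a negative log2 fold change and 8 an unadjusted p below 0.05, 7 of them with the lower mean in the knockouts. Over all genes tested 49.3% were negative, 18.5% had such a p and 8.9% had it with the lower mean. Elk1, an SRF partner that ERK phosphorylates, was at 6.39 ± 0.673 CPM in controls against 4.58 ± 0.403 in knockouts (SD, n = 4 each, edgeR adjusted p = 0.0997). Its groups did not overlap, and it was the 1 gene of the 28 that DESeq2 called. Groups were apart for 4 of the 28, all lower in the knockouts, where 5.92% of all genes tested were apart in that direction. Mapk14, the p38 kinase, was at 106 ± 9.005 against 85.7 ± 8.55 CPM (SD, n = 4 each, adjusted p = 0.13). It passed without control 2 and knockout 4 together (log2 fold change -0.42, adjusted p = 0.0323). These are its lowest control and its highest knockout, so leaving them out widens the difference by itself. Elk3 was at 5.83 ± 0.757 against 7.79 ± 1.75 CPM (SD, n = 4 each, adjusted p = 0.242), and Mrtfb at 40.3 ± 1.55 against 45.0 ± 5.26 CPM (SD, n = 4 each, adjusted p = 0.403).

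Among the negative regulators, none of 8 other dual specificity phosphatases and neither of 2 EGR corepressors passed in edgeR. An unadjusted p below 0.05 was found for 2 phosphatases and both corepressors, and DESeq2 called Dusp8 alone. Such a p was held by 18.5% of all genes tested, and DESeq2 called 5.68% of the genes to which it gave an adjusted p. Dusp8 was at 1.24 ± 0.482 CPM in controls against 3.13 ± 1.51 in knockouts (SD, n = 4 each, edgeR adjusted p = 0.111). Dusp4 was at 1.53 ± 0.0392 against 2.35 ± 0.404 CPM (SD, n = 4 each, adjusted p = 0.131), with no overlap. Dusp10 was at 1.90 and 1.41 CPM and Dusp6, the ERK phosphatase, at 26.9 and 21.8 CPM (means, n = 4, adjusted p of 0.38 and 0.487). Nab1 was at 87.6 ± 12.03 against 69.3 ± 4.63 CPM (SD, n = 4 each, adjusted p = 0.125), with no overlap. Nab2 was at 8.91 ± 1.78 against 6.81 ± 0.752 CPM (SD, n = 4 each, adjusted p = 0.232). No overlap was found for Dusp4 alone of the 8 phosphatases and Nab1 alone of the 2 corepressors. Over all genes tested, 5.54% had groups apart with the knockouts higher and 5.92% with the knockouts lower.

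The Myc paralogs differed from Myc in the sign of their means, without passing the test. Mycn was at 0.867 ± 0.213 CPM in controls against 1.89 ± 1.17 in knockouts (SD, n = 4 each, edgeR adjusted p = 0.187). Mycl was at 13.5 ± 3.51 against 21.7 ± 9.43 CPM (SD, n = 4 each, adjusted p = 0.294). Mlx and Mga, of the MAX network, were at 22.5 and 19.2 CPM and at 38.1 and 29.0 CPM (means, n = 4, adjusted p of 0.155 and 0.167). Without knockout 4, its highest knockout, Mga passed (log2 fold change -0.52, adjusted p = 0.0425). That removal widens the difference by itself. DESeq2 called none of the 10 genes of the network tested, and 3 had an unadjusted p below 0.05. Of all genes tested, 18.5% had such a p, and DESeq2 called 5.68% of the genes to which it gave an adjusted p. None of 11 MYC target genes passed in edgeR, and 3 had an unadjusted p below 0.05. Ldha, lactate dehydrogenase, was at 799 ± 99.2 against 573 ± 83.5 CPM (SD, n = 4 each, adjusted p = 0.107), and DESeq2 called it lower, alone of the 11. Srm was at 23.4 and 19.1 CPM, Shmt2 at 212 and 246 CPM and Ccnd2 at 5.86 and 7.04 CPM (means, n = 4, adjusted p of 0.128, 0.385 and 0.457).

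None of 8 other KLF genes tested passed in edgeR or DESeq2, and 1 had an unadjusted p below 0.05, where 18.5% of all genes tested had one. Klf13 was at 90.4 and 67.9 CPM, Klf9 at 189 and 163 CPM, Klf7 at 4.63 and 5.73 CPM and Klf12 at 25.9 and 29.6 CPM in controls and knockouts (means, n = 4, edgeR adjusted p of 0.185, 0.404, 0.281 and 0.426). In the integrated stress list, whose factor ATF4 induces Atf3, none of 11 passed with either tool, and 2 had an unadjusted p below 0.05. Cebpb, another C/EBP, was at 119 ± 24.5 against 174 ± 33.0 CPM (SD, n = 4 each, adjusted p = 0.132). Cebpg was at 61.8 and 87.2 CPM, Atf5 at 199 and 123 CPM and Atf4 at 57.8 and 53.3 CPM (means, n = 4, adjusted p of 0.221, 0.391 and 0.537).

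Heat shock genes, which respond to handling of tissue as immediate early genes do, were measured beside the set. None of 13 passed with either tool, 3 had an unadjusted p below 0.05, and 12 had a negative log2 fold change (median -0.14). Over all genes tested, 18.5% had such a p and 49.3% a negative log2 fold change. Dnaja1 was at 391 ± 57.7 CPM in controls against 314 ± 17.4 in knockouts (SD, n = 4 each, edgeR adjusted p = 0.186). Hspb1 was at 36.2 ± 16.6 against 18.6 ± 8.62 CPM (SD, n = 4 each, adjusted p = 0.265). Hspa1b, the inducible HSP70 gene, was at 114 CPM in control 1, at 32.2 to 37.8 CPM in the other controls and at 49.1 to 59.1 CPM in the knockouts (adjusted p = 0.988). Control 1 was also the highest control for Egr1, Fos, Atf3 and Ier2. It was not the highest for Jun, Junb, Jund, Klf6, Dusp1 or Myc, and it was the lowest control for Myc. Without control 1 Hspa1b passed the test, higher in the knockouts (log2 fold change 0.64, adjusted p = 0.0232).

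Markers of other liver cells, some of which also express Jun and Klf6, were measured beside the set. Over all genes tested, 49.3% had a negative log2 fold change and 18.5% an unadjusted p below 0.05. Calls by edgeR covered 2.06% of them, and DESeq2 called 5.68% of the genes to which it gave an adjusted p. All 11 macrophage markers had a positive log2 fold change, none called by edgeR, 5 with an unadjusted p below 0.05 and 1, Lyz2, called by DESeq2, and their levels summed to 197 to 407 CPM in the controls and 316 to 525 CPM in the knockouts. All 9 stellate markers were positive too, 3 with an unadjusted p below 0.05, and none was called by edgeR or among the 7 to which DESeq2 gave an adjusted p. Their sum was 121 to 237 CPM in the controls, 425 CPM in knockout 2 and 211 to 228 CPM in the other knockouts, inside the range of the controls. The 8 endothelial markers were positive as well, 3 with an unadjusted p below 0.05 and none called by either tool, and summed to 130 to 164 against 154 to 213 CPM. All 6 bile duct markers tested were positive, and Epcam, Spp1 and Krt19 rose. Their sum was 30.8 to 65.6 CPM in the controls, 376 CPM in knockout 2 and 129 to 219 CPM in the other knockouts. Knockout 2, the highest liver for all 4 of these sums, was also the highest for Klf6, Fos, Egr1 and Atf3, but not for Jun. Of 7 neutrophil markers none had enough counts to be tested, with no count at all for Mpo and Ly6g, and of 9 lymphocyte markers only Cd4 had (log2 fold change -0.38, edgeR adjusted p = 0.64). The 5 erythroid markers tested were all negative, and Alas2 fell. Their sum was 256 CPM in control 4, 429 to 519 CPM in the other controls and 187 to 334 CPM in the knockouts. The 7 hepatocyte markers, Alb first among them, had no edgeR call, 2 unadjusted p below 0.05 and 1 DESeq2 call, Cps1, lower. They summed to 80032 to 115000 CPM in the controls and 104130 to 115140 CPM in the knockouts. The part of these cells in the levels of Jun and Klf6 was not tested.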

How the data were processed

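RNA of 8 livers was sequenced from polyadenylated RNA with a stranded TruSeq kit, per the labels' protocols. Per the submitters' processing notes, the tools were RSEM 1.2.22, STAR 2.5.1, Trimmomatic 0.36, Picard 1.84 and DESeq2, with build mm10. Neither their roles, the strand setting nor the gene annotation is given in the sources used here. The authors deposited RSEM expected counts per gene, which divide reads shared between genes and need not be whole, and TPM values, scaled to gene length. One more deposited table, with all 8 livers, repeats these expected counts (largest difference 0). All 55450 gene identifiers matched GENCODE M21, which gave coordinates on mm10.

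Livers were grouped by their titles. Expected counts, rounded, went into edgeR 4.0.16 (R 4.3.3): filterByExpr by group (minimum count 10, minimum total 15), TMM scaling, and the robust quasi-likelihood test, two-sided, with Benjamini-Hochberg adjustment over 13303 genes, at a threshold of 0.05. The SE is the log2 fold change over the root of the F statistic, and intervals are at 95%. The SD of log2 CPM used a prior count of 2. The steps were tested on simulated data. Replicates of a genotype all differed by more than sampling noise. Same-numbered livers deviated from their group means with correlations of 0.207, 0.00904, -0.0243 and -0.0672, and no pairing was assumed. The labels give no batch.

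The members and gene lists were chosen with earlier results of these data known. Named genes are all members, Cebpa, the 3 genes most like the members and, of each pathway list, the 2 genes with the smallest p in each direction. Every gene of these lists called by edgeR is named too. Epcam, Spp1, Krt19, Alas2, Lyz2 and Cps1, marker genes called by edgeR or DESeq2, Cd4, Alb and genes named as too low to test were added after their values were seen. So were Errfi1, Gadd45a, Klf10 and Socs3, called by DESeq2 alone. Other settings were RLE factors, a minimum of 1 CPM in 4 livers, no filter, library size alone, DESeq2 1.42.0, limma 3.58.1 on log2(TPM + 1) and log2(TPM + 0.1), the replicate number as a block, leaving out each liver in turn, and control 2 and knockout 4 left out together. Promoter motifs were counted in the 250 bases before each RefSeq start. Figures were drawn with matplotlib 3.10.9.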

Additional observations from a re-analysis of the deposited data

Results flagged for a closer look

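Dusp1 in knockout 3, at 46.7 CPM, stood apart from the other knockouts, at 21.6, 21.9 and 25.4 CPM. Its gap to the nearest of them took up 0.851 of the range of the group, above Dixon's 95% critical value for 4 livers. This was the only one of 20 sets of 4 livers (10 genes in each genotype) past that value, and chance passes about 1 set in 20. Control 3, at 56.5 CPM, was the highest control for Dusp1.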

How the results depend on the processing

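The count of immediate early genes called was 0 with all livers, 2 with DESeq2 (Jun and Klf6) and 1 with the replicate block (Klf6, adjusted p = 0.0288). It was 1 without control 2 and knockout 4 together (Klf6, log2 fold change 1.04, adjusted p = 0.017), and 0 to 1 with 1 liver left out. For Klf6, control 2 was the highest control and knockout 4 the lowest knockout. The count over all genes, 274 (113 higher and 161 lower), was 844 with DESeq2, 176 with the replicate block, 431 without control 2 and knockout 4 together, and 108 to 372 with 1 liver left out. With library size alone it was 161 higher and 115 lower. The median gene was 0.12 higher in the knockouts on log2(TPM + 0.1). Of the numbered livers only number 1 correlated best with its own number, so the block is no pairing.

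The log2 fold changes of Jun, Klf6, Fos, Jund, Egr1, Ier2 and Myc kept their sign in every setting run. Signs turned for Junb (0.051 and 0.060 on the TPM scales with 1 and 0.1 added, 0.050 without control 2 and knockout 4 together, -0.30 to 0.069 with 1 liver left out). They turned for Dusp1 (0.10 and 0.12 on the TPM scales, -0.50 to 0.25 with 1 liver left out) and for Atf3 (0.015 with library size alone, 0.068 and 0.16 on the TPM scales, -0.41 to 0.21 with 1 liver left out). Among other named genes they turned for Egfr (0.050 with library size alone, -0.73 to 0.26 with 1 liver left out) and Hspa1b (-0.16 without control 2 and knockout 4 together, -0.17 to 0.64 with 1 liver left out). The cause was not tested. Trib1 also lost its call without a filter (adjusted p = 0.0918), with the replicate block (0.0711) and without control 2 and knockout 4 together (0.0748). Fos and Atf3, at 7 to 36 counts per liver, are limited by depth and were dropped by the filter of 1 CPM in 4 livers.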
